A study of Mus musculus with 2 samples.

Results

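The carnitine shuttle is the set of enzymes and carriers through which long-chain fatty acids reach the mitochondrial matrix. It was described here by 7 genes of the 23361 for which the deposited table held values. These were the CPT1 isoforms Cpt1a, Cpt1b and Cpt1c, the inner membrane genes Slc25a20 and Cpt2, the acetyl-group enzyme Crat, and the carnitine importer Slc22a5. They were chosen by symbol, with their levels at D0 and D7 already known, so all differences between the stages are given as descriptions. Each of the 7 genes had 1 row in the table, and all were above 0 in both libraries.

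The 2 RNA-Seq libraries came from undifferentiated brown preadipocytes (D0) and from brown adipocytes after differentiation (D7), so each stage has a single library. The cells of both stages came from the interscapular brown fat of newborn C57BL/6 mice, and the methods name pups of either sex. Per the labels, the cells were grown with 20% FBS and then, from 4 days before induction, in a differentiation medium that held T3 (1 nM) and insulin (0.1 μM) with 10% FBS, which by the labels both stages share. IBMX (0.5 mM), dexamethasone (2 μg/ml) and indomethacin (0.125 mM) were then present for 2 days, before a return to the same medium until D7. The paper's methods give other amounts of insulin and dexamethasone and describe immortalization with large T, whereas the labels name primary cultures. By those methods, insulin and T3 were added with the inducers at day 0, so whether the D0 cells had received them differs between the sources. Whether cells of several animals were pooled is not given in the sources used here. Both libraries are bulk RNA, in which fewer cells of a type and less RNA per cell cannot be told apart.

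Acyl groups of long chain cannot cross the inner mitochondrial membrane as CoA esters. CPT1, on the outer membrane, moves the acyl group to carnitine, the translocase encoded by Slc25a20 exchanges acylcarnitine for free carnitine, and CPT2 rebuilds acyl-CoA on the matrix side. CPT1 is the regulated step, since it is inhibited by malonyl-CoA, the product of acetyl-CoA carboxylase. Cpt1a is the liver isoform and is found in many tissues, Cpt1b is the isoform of muscle and brown fat and is the more sensitive to malonyl-CoA, and Cpt1c is a mainly neuronal isoform of the endoplasmic reticulum with little activity of its own. Brown adipocytes burn fatty acids for heat and depend on this entry step.

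The isoforms are paralogs, so it was first asked whether a read of 1 isoform could be placed on another. Among the read-length windows of 90 bases in the Cpt1a transcript, 0 of 4228 matched the Cpt1b transcript with up to 5 mismatches, the number the authors' alignment allowed. The coding sequences of Cpt1a and Cpt1b were 67.3% identical over 2300 aligned bases, and those of Cpt1a and Cpt1c 62.1% over 2288. The most alike coding window of Cpt1a and Cpt1b still differed at 16 of 90 bases. It is shown here, from the GENCODE M21 transcripts (mm10, GRCm38), with differing bases in capitals, because it is the place where reads of these isoforms were most likely to be confused.
Cpt1a: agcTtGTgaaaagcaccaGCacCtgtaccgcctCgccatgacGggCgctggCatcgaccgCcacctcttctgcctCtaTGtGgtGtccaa
Cpt1b: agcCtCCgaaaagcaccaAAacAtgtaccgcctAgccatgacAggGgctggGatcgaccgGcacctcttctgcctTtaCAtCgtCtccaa
Both windows cover coding bases 1905 to 1994 and lie within exon 16. The Cpt1a window is at chr19:3380046-3380135 on the plus strand and the Cpt1b window at chr15:89418766-89418855 on the minus strand. For Cpt1a against Cpt1c and Cpt1b against Cpt1c, the closest windows differed at 22 and 21 bases, and 0 windows were within 5 mismatches. The encoded proteins have 773 (Cpt1a), 772 (Cpt1b) and 798 (Cpt1c) residues.

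Levels are FPKM, fragments per kb of transcript scaled to the number of reads, as the authors deposited them. FPKM corrects for transcript length, so levels of different genes can be set side by side. The fragments behind each value were recovered from single-exon genes, with totals of 21471900 (D0) and 18266067 (D7). Intervals are 95% intervals on these fragments, cover counting error only, and compare 2 libraries rather than 2 stages. Of the 14986 genes above 0 in both libraries, 18.5% were at least 2.0-fold higher at D7 and 13.2% at least 2.0-fold lower, with a median log2 ratio of 0.02. The adipocyte markers were present at D7, with Adipoq at an FPKM of 943 and Fabp4 at 14391. The brown fat markers Ucp1 and Cox8b, both listed at 0 in the D0 library, were at 4.57 and 253 in the D7 library. Of the 8 brown fat markers listed, 4 were above 0 in both libraries. Of these, 3 were at least 2.0-fold higher at D7, beside 18.5% of all genes. The other, Prdm16, was at 0.835 (D0) and 1.02 (D7), a ratio of 1.22 (0.965 to 1.53).

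**Figure D1:**
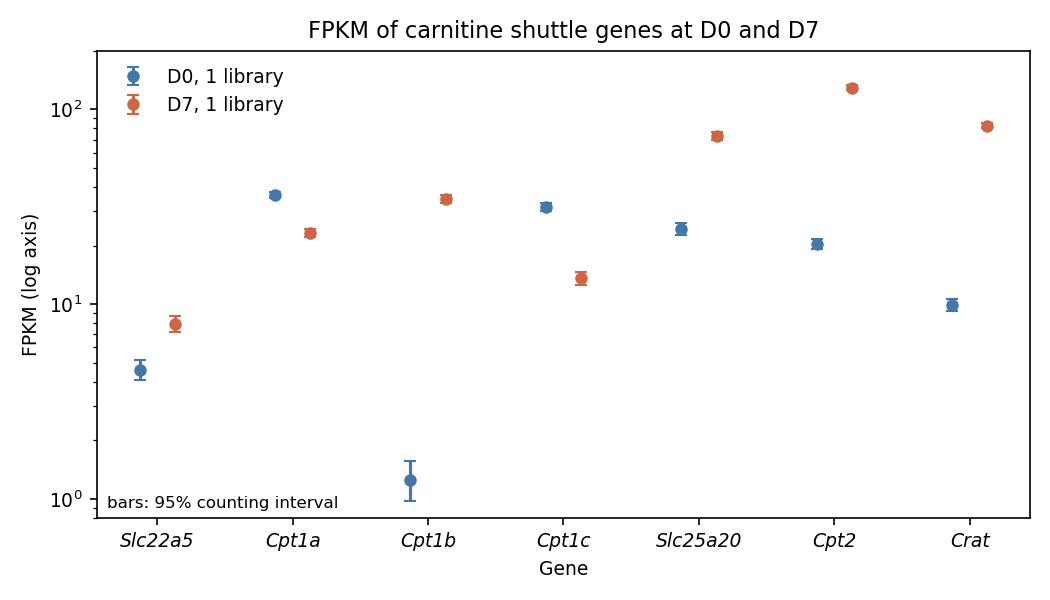
FPKM of the 7 genes (log axis) in the D0 library (blue) and the D7 library (orange), with bars for the 95% counting interval. Cpt1b spans the widest distance, from 1.25 to 34.7, while Cpt1a and Cpt1c are the genes with the D7 point below the D0 point in the values as deposited (for Cpt1a not under ribosomal protein scaling, where its ratio is 1.19).

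Most of the shuttle was higher in the D7 library, with the exception of Cpt1c and, in the values as deposited but not relative to ribosomal protein genes, of Cpt1a. Cpt1b, Crat, Cpt2 and Slc25a20, 4 of the 7 genes, were at least 2.0-fold higher, beside 18.5% of all genes above 0 in both libraries. Cpt1c, 1 of the 7, was at least 2.0-fold lower, beside 13.2% of all genes, and Cpt1a and Slc22a5 were within 2.0-fold. Relative to ribosomal protein genes, Cpt1c was at 0.808 and no longer past 2.0-fold, and Slc22a5 at 3.24 and past it, where 46.5% of all genes were at least 2.0-fold higher and 4.26% lower. By any amount, 5 of the 7 were higher and 2 lower, beside 50.6% and 49.4% of all genes. Since the genes were chosen with this contrast known, nothing is read from these counts.

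The order of the CPT1 isoforms differed between the libraries. Cpt1a, the liver isoform, had the highest level of the 7 genes at D0, an FPKM of 36.4 (95% interval 35.2 to 37.7, from about 3236 fragments). At D7 it was at 23.1 (22.0 to 24.2, about 1744 fragments). The D7 level was thus 0.634 times the D0 level (0.598 to 0.672), which is 1.58-fold lower and does not reach 2.0-fold, and relative to ribosomal protein genes it was 1.19 times the D0 level.

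Cpt1b, the muscle and brown fat isoform, had the lowest level of the 7 genes at D0, an FPKM of 1.25 (0.981 to 1.57) from about 73 fragments. At D7 it was at 34.7 (33.0 to 36.3) from about 1718 fragments. Its ratio of 27.7 (21.9 to 35.5) was the largest of the 7 genes, at percentile 98.7 of the ratios of all genes above 0 in both libraries. Among the genes above 0 in each library, Cpt1b stood at percentile 30.1 of levels at D0 and at percentile 85.0 at D7.

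Cpt1c, the neuronal isoform, was nearly as high as Cpt1a at D0, with an FPKM of 31.5 (30.05 to 33.0, about 1768 fragments). At D7 it was at 13.6 (12.5 to 14.7, about 647 fragments), which gives a ratio of 0.430 (0.393 to 0.472). Cpt1c was thus lower at D7 in greater proportion than Cpt1a. The level of Cpt1c relative to Cpt1a went from 0.865 to 0.587, a change of 0.679 times (0.609 to 0.757).

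**Figure D2:**
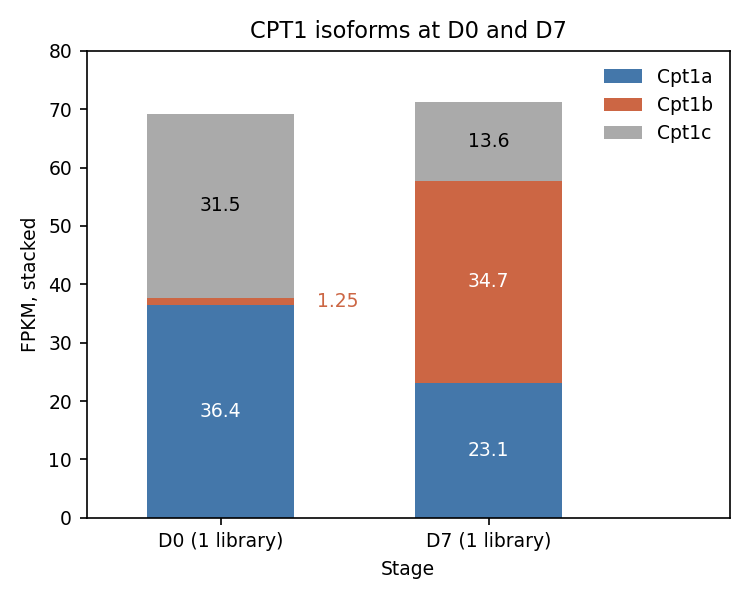
FPKM of Cpt1a, Cpt1b and Cpt1c stacked for the D0 and the D7 library, with the value of each isoform. The stacks reach 69.2 and 71.3, while the Cpt1b part goes from 1.25 to 34.7.

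Weighed against each other, the lower levels of Cpt1a and Cpt1c and the higher level of Cpt1b nearly cancelled. Cpt1a was lower by 13.3 FPKM (D7 minus D0 of -13.3), Cpt1c by 17.9 (-17.9), and Cpt1b was higher by 33.4. The summed FPKM of the isoforms was 69.2 in the D0 library and 71.3 in the D7 library. Their ratio was 1.03, with a counting interval from 0.988 to 1.07 that includes 1, and it was 0.999 with the upper quartile, 0.807 with the library median and 1.93 with ribosomal protein genes as the scale. Without Cpt1c, a choice made after the values were seen, the sum of Cpt1a and Cpt1b went from 37.7 to 57.7, a ratio of 1.53 (1.46 to 1.61). Whether the CPT1 sum as deposited differed between the libraries beyond counting error therefore depended on whether Cpt1c was counted.

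Shares within a library do not depend on scaling between libraries. Cpt1a made up 52.6% of the summed isoform FPKM at D0 and 32.4% at D7. Cpt1b went from 1.81% to 48.6%, and Cpt1c from 45.5% to 19.0%. Cpt1a was 29.1 times as high as Cpt1b at D0, whereas at D7 Cpt1b was 1.501 times as high as Cpt1a. The ratio of Cpt1b to Cpt1a was thus 43.7 times as high at D7 as at D0 (34.3 to 56.4). The order of the isoforms by FPKM at D0 was Cpt1a, Cpt1c and Cpt1b, and at D7 it was Cpt1b, Cpt1a and Cpt1c. Counting intervals of neighbours did not overlap. By fragments, Cpt1a (1744) and Cpt1b (1718) were nearly equal at D7. The lead of Cpt1b there rests on the transcript lengths used, 4317 bp for Cpt1a and 2895 bp for Cpt1b, which counting intervals do not cover.

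The direction of Cpt1a, unlike that of Cpt1b, depended on the scaling. With the median of 79 cytosolic ribosomal protein genes, which was 0.533 at D7 relative to D0, set to 1, the ratio of Cpt1a was 1.19 and that of Cpt1c 0.808. With values floored at 0.01 and each library divided by its median, Cpt1a was at 0.496, just past 2.0-fold. These scalings shift every log2 ratio by 0.91 and by -0.35. Under ribosomal protein scaling, 46.5% of all genes were at least 2.0-fold higher and 4.26% at least 2.0-fold lower, so counts under that scaling are read against these shares. Under the others tried, with shifts of at most 0.05, Cpt1a stayed near its deposited ratio. With 1 library per stage, the data do not show which scaling is right, and the spread between cultures is unknown.

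**Figure D3:**
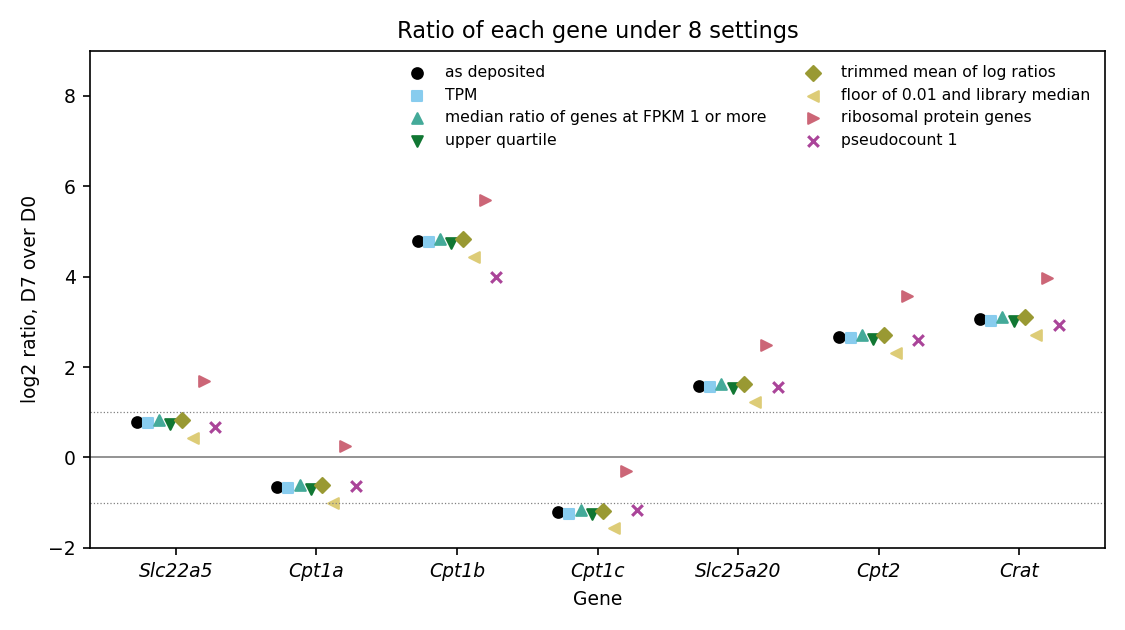
Log2 ratio of D7 over D0 for each gene as deposited and under 7 other settings, with dotted lines at 2.0-fold. Cpt1a crosses 0 under ribosomal protein scaling, where its ratio is 1.19, whereas Cpt1b, Cpt2, Crat, Slc25a20 and Slc22a5 stay above 0 and Cpt1c below 0 under all 8.

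The genes downstream of CPT1 were all higher in the D7 library. Cpt2, which rebuilds acyl-CoA in the matrix, was at an FPKM of 20.4 in the D0 library (19.1 to 21.7) and of 129 in the D7 library (126 to 133), which is 6.36 times as high (5.93 to 6.81). Slc25a20, the carnitine-acylcarnitine translocase, was at 24.3 (22.7 to 25.98) and 73.0 (69.9 to 76.2), a ratio of 3.01 (2.78 to 3.26). At D0, Cpt2 and Slc25a20 stood at percentiles 76.4 and 79.5 of the levels of genes above 0.

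Crat, which moves acetyl groups between CoA and carnitine and so buffers acetyl-CoA, was at 9.89 (9.21 to 10.6) at D0 and 82.4 (80.3 to 84.7) at D7. Its ratio of 8.33 (7.73 to 8.998) was the second largest of the 7 genes, after Cpt1b. Slc22a5 encodes OCTN2, the sodium-dependent carnitine importer of the plasma membrane. It was at 4.58 (4.07 to 5.15) and 7.90 (7.17 to 8.71), a ratio of 1.72 (1.48 to 2.01), and was the lowest of the 7 genes at D7.

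The level of Cpt2 relative to CPT1 depended on the isoform it was set against. Cpt2 was at 0.559 times the level of Cpt1a at D0 and at 5.60 times at D7, a change of 10.0 times (9.15 to 10.98). Against Cpt1b it went the other way, from 16.3 times the level to 3.73 times, a change of 0.230 times (0.177 to 0.293). Against the summed isoforms, Cpt2 went from 0.294 to 1.81 times, a change of 6.17 times. Between the inner membrane genes, Cpt2 relative to Slc25a20 had a ratio of 0.839 at D0 and 1.77 at D7, a change of 2.11 times (1.898 to 2.35).

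At D0 the order of levels was Cpt1a, Cpt1c, Slc25a20, Cpt2, Crat, Slc22a5 and Cpt1b. At D7 it was Cpt2, Crat, Slc25a20, Cpt1b, Cpt1a, Cpt1c and Slc22a5. In both orders the counting intervals of all neighbours lay apart.

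The positions and neighbours of these genes bear on how firmly their values can be read. Coordinates are those of mm10 in GENCODE M21. Cpt1a (ENSMUSG00000024900.5) spans chr19:3322334-3385733 on the plus strand, where no other annotated gene overlaps it. Cpt2 (ENSMUSG00000028607.16) at chr4:107903981-107923610, Slc25a20 (ENSMUSG00000032602.6) at chr9:108662088-108684641 and Slc22a5 (ENSMUSG00000018900.7) at chr11:53864542-53891660 are likewise free of overlap. Cpt1b (ENSMUSG00000078937.8) lies at chr15:89416405-89425863 on the minus strand, just downstream of Chkb, which encodes choline kinase beta. The annotated gene Gm44502 spans Cpt1b and overlaps Chkb, and 91.5% of the 90-base windows of the Cpt1b transcript also occur in Gm44502.

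The table gave 1 locus to the rows of Cpt1b, Chkb and BC090627, which RefSeq lists as a synonym of Gm44502. BC090627 had an FPKM of 5.83e-05 in the D0 library, far under the 0.0514 that 3 fragments would give a transcript of the length of Cpt1b there. How reads of the shared exons were assigned is not given in the sources used here, so the Cpt1b value is uncertain to that extent. In the D7 library it was at 0.161, which is 0.464% of the Cpt1b value. Chkb was at 13.5 (D0) and 20.2 (D7), and its ratio was 1.496. Chkb was thus higher than Cpt1b at D0 and lower than it at D7, and its exons share 0 bases with the named Cpt1b transcript.

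Cpt1c (ENSMUSG00000007783.10) at chr7:44959372-44974851 shares 366 exon bases with the antisense gene 6530437J22Rik, and Crat (ENSMUSG00000026853.15) at chr2:30400471-30415813 shares 27 with the antisense gene Gm16323. The libraries kept strand, but whether it was used in counting is not stated, so the Cpt1c value is uncertain to that extent. The deposited locus of Crat also spans Dolpp1 on the opposite strand, which was at 7.91 at D0 and 10.2 at D7.

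The promoters were searched for short motifs in the 250 bases before the RefSeq start (GRCm38.p6), on both strands. Entries were found for Cpt1a, Cpt1c, Cpt2, Slc25a20 and Slc22a5. The GC box, GGGCGG, to which Sp and KLF factors bind, was present in all 5, and in 32.7% of the 32851 promoters of the table. The upstream sequences of Cpt1a, lower at D7 as deposited, and of Cpt2 and Slc25a20, higher at D7, are shown from the far end of the window up to its first base in an annotated exon, with GC boxes of either strand in capitals, because the motif stands in genes on both sides of the contrast.
Cpt1a: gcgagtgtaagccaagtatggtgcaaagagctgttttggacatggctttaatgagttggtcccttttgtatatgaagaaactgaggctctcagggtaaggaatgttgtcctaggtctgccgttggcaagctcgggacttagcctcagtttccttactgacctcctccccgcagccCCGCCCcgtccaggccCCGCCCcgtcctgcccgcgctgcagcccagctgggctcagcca
Cpt2: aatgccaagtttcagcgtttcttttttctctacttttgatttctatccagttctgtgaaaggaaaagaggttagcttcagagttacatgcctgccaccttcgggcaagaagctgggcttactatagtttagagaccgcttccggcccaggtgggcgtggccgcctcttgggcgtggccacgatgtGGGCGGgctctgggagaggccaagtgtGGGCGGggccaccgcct
Slc25a20: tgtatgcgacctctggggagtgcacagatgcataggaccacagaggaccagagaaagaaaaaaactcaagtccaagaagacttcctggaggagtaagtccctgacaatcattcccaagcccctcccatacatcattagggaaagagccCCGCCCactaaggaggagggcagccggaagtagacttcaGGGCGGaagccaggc
The Cpt1a stretch lies inside the annotated gene, in an intron of a longer transcript and before the first exon of the transcript used here. The sequences are at chr19:3323051-3323284 on the plus strand, chr4:107923611-107923839 on the minus strand and chr9:108661886-108662087 on the plus strand. The shorter KLF motif CACCC was present in Cpt1a and Slc22a5, 2 of the 5, against 52.0% of all promoters. The nuclear receptor core motif AGGTCA was present in Cpt1a and Cpt1c, against 14.0%, and CCAAT in the same 2 genes, against 33.8%. The exact direct repeat of AGGTCA with a spacer of 1 base, the type bound by PPAR with RXR, was in 0 of the 5 windows and in 0.0335% of all promoters. With a spacer of 4 bases, the type bound by thyroid hormone receptors, it was in 0 of 5 and in 0.0152%. Both repeats contain the core motif. GC content of the 250 bases ranged from 44% in Cpt1c to 73.6% in Slc22a5, with a median of 52.4% over all promoters. In Slc25a20, 1 more GC box of its 3 lies past the sequence shown.

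**Figure D4:**
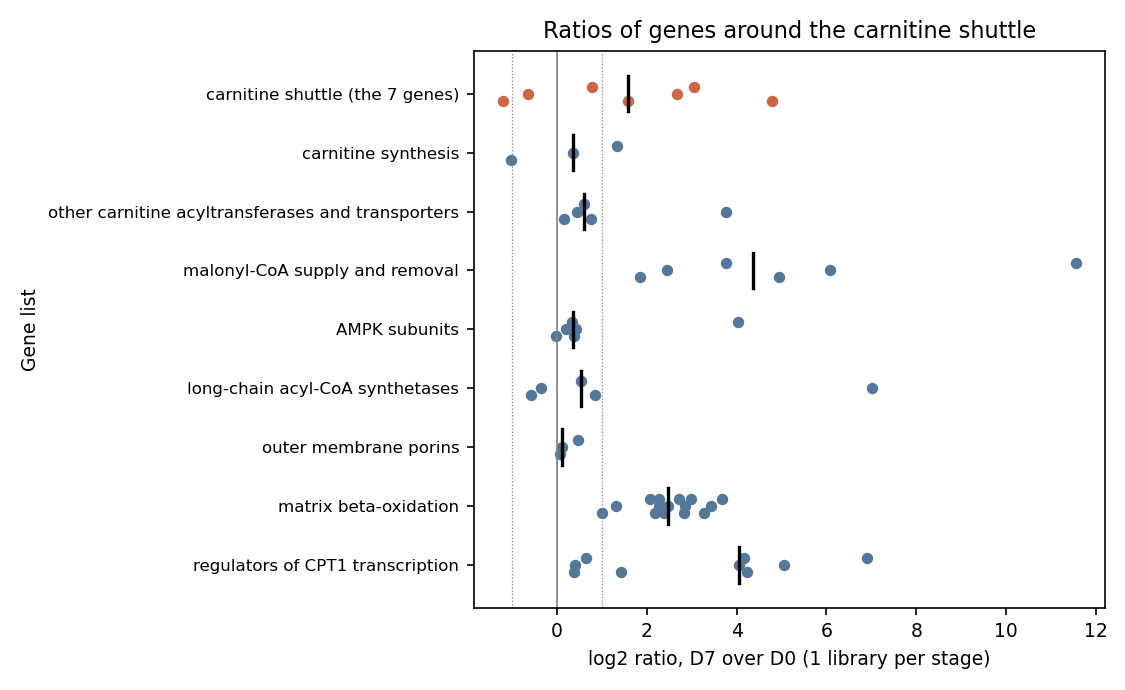
Log2 ratio of D7 over D0 for each gene above 0 in both libraries (points) and the median of its list (black bar), with dotted lines at 2.0-fold. The matrix enzymes lie between 1.00 and 3.68, while the shuttle genes spread from -1.22 to 4.79.

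Genes around the shuttle were compared by lists chosen with earlier results known. Of the 15 genes of beta-oxidation in the matrix, the pathway that the shuttle feeds, 14 were at least 2.0-fold higher at D7. None was lower, and 18.5% of all genes were at least 2.0-fold higher. The count was 15 under ribosomal protein scaling, beside 46.5% of all genes, and 13 under the library median, beside 13.4%. As deposited, the median log2 ratio of the 15 genes was 2.48, that is 5.58-fold, beside a median of 0.02 over all genes. The medium-chain dehydrogenase Acadm was the most changed, from 25.8 (D0) to 330 (D7), and Eci2, an isomerase for unsaturated chains, was the least changed with a ratio of 1.998 that just missed the threshold (1.86 to 2.15). Crat with its ratio of 8.33, Cpt2 with 6.36 and Slc25a20 with 3.01 lay within the range of these enzymes. Cpt1a, Cpt1c and Slc22a5 lay below all 15, and Cpt1b lay above all 15. The interval of Slc22a5 (ratio 1.72, 1.48 to 2.01) overlapped that of Eci2.

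The genes listed for supply and removal of malonyl-CoA, the inhibitor of CPT1, were at least 2.0-fold higher at D7 in 6 of 6 cases. Among all genes 18.5% were, or 46.5% under ribosomal protein scaling, where the 6 also passed. The median log2 ratio of the list was 4.35. Beside the genes given below, it held Acly (ratio 13.6), Thrsp (3017) and Mid1ip1 (3.59). Acaca and Acacb encode the acetyl-CoA carboxylases that make malonyl-CoA, and Acacb is the mitochondrial form. Acaca went from 12.9 to 394 FPKM, a ratio of 30.6 (29.4 to 31.9). Acacb went from 0.477 to 32.2, a ratio of 67.5 (54.4 to 84.6). Mlycd, the decarboxylase that removes malonyl-CoA, went from 4.70 to 25.5, a ratio of 5.43 (4.64 to 6.36).

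Of the 5 long-chain acyl-CoA synthetases, which make the substrate of CPT1, 1 was at least 2.0-fold higher as deposited, beside 18.5% of all genes. This was Acsl1, from 3.89 to 500.4 (ratio 129). Under ribosomal protein scaling, 3 of 5 were, beside 46.5% of all genes. Acsl4 was at 14.2 (D0) and 9.57 (D7), lower as deposited but higher under ribosomal protein scaling. The porins Vdac1, Vdac2 and Vdac3, through which small molecules cross the outer membrane, had a median log2 ratio of 0.12 as deposited. In either direction 0 of 3 passed 2.0-fold, beside 18.5% of all genes higher and 13.2% lower. The porin median was -0.23 under the library median. Under ribosomal protein scaling 2 of 3 were at least 2.0-fold higher, beside 46.5% of all genes. Of the 7 AMPK subunit genes, whose kinase switches off acetyl-CoA carboxylase, 6 were above 0 in both libraries. Among these, 1 was at least 2.0-fold higher as deposited, beside 18.5% of all genes. It was the catalytic subunit Prkaa2, from 0.238 to 3.90 (ratio 16.4, 11.8 to 23.1). Under ribosomal protein scaling 5 of 6 were, beside the same 46.5%.

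Carnitine itself is made from trimethyllysine or taken up. Tmlhe, the first enzyme of its synthesis, was listed at 0 in both libraries. No transcript of that symbol was found in GENCODE M21, so no detection limit was computed, and its 0 is not read as absence. Bbox1, the last enzyme, had about 3 fragments at D0 and none at D7, which is at the limit of detection. Aldh9a1, a middle enzyme also used elsewhere, was at 13.2 (D0) and 33.5 (D7), a ratio of 2.54 (2.32 to 2.77). Shmt2, which is known mainly for folate metabolism, was at 37.5 and 18.5, a ratio of 0.494 (0.452 to 0.539). It was past 2.0-fold as deposited, but not under the median ratio, the trimmed mean or ribosomal protein scaling. Among other carnitine enzymes and transporters, Slc22a4, the ergothioneine and carnitine transporter OCTN1, went from 0.336 to 4.53 (ratio 13.5, 7.96 to 24.6). The peroxisomal enzyme Crot was at 14.1 (D0) and 23.9 (D7). In this list of 7, 1 of the 5 genes above 0 in both libraries passed 2.0-fold, and 5 of 5 under ribosomal protein scaling, beside 18.5% and 46.5% of all genes.

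Nuclear receptors and coactivators that are known to act on CPT1 genes were higher at D7 in 9 of 9 cases, beside 50.6% of all genes. As deposited 6 were at least 2.0-fold higher, and 9 of 9 under ribosomal protein scaling (18.5% and 46.5% of all genes). Their median log2 ratio was 4.04 as deposited and 2.00 with a pseudocount of 1. Ppara, the receptor best known for fatty acid oxidation genes, went from 0.219 to 4.11 FPKM, a ratio of 18.8 (11.3 to 34.4). Ppargc1a, a coactivator of mitochondrial genes, went from 0.0370, about 5 fragments, to 4.41. Thrb, a receptor of the T3 in the medium, went from 0.376 to 6.74 (ratio 17.9, 13.3 to 24.3). Esrra was at 16.1 and 43.3 (ratio 2.69), while Ppard, Rxra and Thra had ratios of 1.29, 1.55 and 1.31.

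Markers of tissues in which each isoform is known were set beside the isoforms. Of 12 skeletal muscle markers, 4 were listed at 0 in both libraries, among them Myod1, Myf5 and Ckm, and the summed FPKM of the list was 52.4 at D0 and 6.54 at D7. Most of that sum was Acta1, at 45.4 and 1.73, while members of the list differed in both directions. Myh1, a fast myosin, went from 0.0239 to 0.563 (ratio 23.5, 7.54 to 115), from about 3 to about 59 fragments, and Myh2 from 0 to about 16 fragments, in the direction of Cpt1b. Tnnt3 (ratio 0.118, about 11 fragments at D0 and about 1 at D7) and Des (0.528) went the other way. Among the 5 muscle markers above 0 in both libraries, 2 were higher and 3 lower, beside 50.6% and 49.4% of all genes. Of 7 hepatocyte markers, 4 were listed at 0 in both libraries, among them Alb, and the list summed to 0.173 at D0 and 46.4 at D7. Nearly all of the D7 sum was Cyp2e1, at 46.2 there and listed at 0 at D0. Most of the D0 sum was Apob, which went from 0.115, about 34 fragments, to 0.00399, about 1 fragment. Apoa1 had about 1 fragment at D0 and about 3 at D7. Of 8 neuronal markers, Rbfox3 was listed at 0 in both libraries and Snap25 had about 3 fragments at D7. The sum of this list was 102 and 21.7 and was nearly all Tubb3, at 101 and 18.0, which went in the direction of Cpt1c. Of the 6 neuronal markers above 0 in both libraries, 3 were higher and 3 lower as deposited, with a median log2 ratio of 0.03. Map2 went from 0.349 to 3.04 (ratio 8.70, 6.32 to 11.996), against the direction of Cpt1c. Of 6 cardiac muscle markers, Myh6 was listed at 0 in both libraries, and the sum was 3.03 and 1.88, a ratio of 0.622 as deposited and 1.17 under ribosomal protein scaling. Macrophage markers were at least 2.0-fold higher at D7 in 7 of 8 cases, beside 18.5% of all genes. The count was the same under ribosomal protein scaling, beside 46.5%. Their summed FPKM was 145 at D0 and 512 at D7. Proliferation markers were at least 2.0-fold lower in 5 of 6 cases as deposited and in 3 of 6 under ribosomal protein scaling (13.2% and 4.26% of all genes), with sums of 97.2 and 45.3. Endothelial markers summed to 1.04 and 2.39. Preadipocyte markers summed to 1372 and 818, a ratio of 0.596 as deposited that turned to 1.12 under ribosomal protein scaling. Of these 6 markers, 1 was higher by any amount as deposited and 4 under that scaling, and among them Cd34 had a ratio of 8.29 and Pdgfra of 0.973 as deposited. The part of these cells and of the cell cycle in the shuttle genes was not tested.

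The genes whose pair of levels was nearest to that of Cpt1a, among 10235 named genes with an FPKM of at least 1 in both libraries, were Snx7 (36.4 at D0 and 23.3 at D7), Arap1 (37.3 and 23.0) and Bace1 (36.3 and 23.8). Nearest to Cpt1b were Gda (1.17 and 35.8), Arl4a (1.38 and 37.4) and Dhdh (1.31 and 30.3). Likeness was the distance in log2 FPKM over 2 libraries, from 0.01 to 0.04 for the genes near Cpt1a and from 0.10 to 0.20 for those near Cpt1b.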

How the data were processed

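The RNA-Seq libraries of the D0 and D7 stages of brown adipocyte differentiation were analysed, 1 of each. The authors removed low-quality, duplicate and rRNA reads, aligned the others to mm10 and gene sequences with SOAP2 (the submitters' processing notes name Bowtie2), and deposited FPKM, 1 value for a gene in each library. Removal of duplicates can lower high levels. The annotation and the use of strand are not given in the sources used here. Of 27324 rows, 3963 carried no value. Genes and gene lists were chosen with earlier results of these data known.

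Ratios were computed from the deposited FPKM values without a pseudocount, and the threshold was the 2.0-fold of the paper's methods. Without replicates there is no test and no p-value. Fragments were recovered from 600 single-exon genes of at least 600 bp. With 179 bp (D0) and 182 bp (D7) taken from each length, 100% of the 79 and 90 values of up to 20 fragments lay within 0.1 of a whole number. Fragments of the 7 genes use the length of the transcript named in the table and are approximate, because those genes have several exons. Intervals are exact Clopper-Pearson intervals for ratios, Poisson intervals for levels, conditional intervals for ratios of ratios, and normal intervals on the log scale for sums. In simulated data for D0 against D7, the 95% intervals held the true fold in 95.3% of 12146 genes, and denominators from 600 genes were recovered within 0.000825%. These simulations drew counting error alone, with lengths known and the true scaling given to the intervals. They check the calculation and do not cover duplicate removal, shared reads or genes with several exons.

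Named are the 7 genes, list genes that passed 2.0-fold or that answer a count of their list, genes overlapping the 7, and the 3 nearest genes of Cpt1a and Cpt1b. Alternatives were pseudocounts of 0.1 and 1, TPM, the upper quartile, a trimmed mean (30% and 5%), the median ratio, ribosomal protein scaling, a floor of 0.01 with the library median, summing of rows, a filter at an FPKM of 1, and 4-fold. The ribosomal scaling left out 2 of 81 genes listed at 0. Sequences were aligned with biopython 1.88 and figures drawn with matplotlib 3.10.9, in Python 3.11.15 with scipy 1.17.1, pandas 2.3.3 and numpy 2.4.6.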

Additional observations from a re-analysis of the deposited data

How the results depend on the processing

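Over its 11 alternatives, the count of shuttle genes higher at D7 changed in 2 settings. At 2.0-fold it was 4 in each, except for 5 under ribosomal protein scaling, beside 46.5% of all genes. A threshold of 4-fold left 3. Under ribosomal protein scaling, the ratio of Cpt1a was 1.19, that of Cpt1b 51.95 and that of the summed isoforms 1.93, the number of shuttle genes at least 2.0-fold lower was 0, and the median log2 ratios of the porins and of matrix beta-oxidation were 1.03 and 3.39. The floor of 0.01 with the library median gave 0.496, 21.7 and 0.807 for the ratios of Cpt1a, Cpt1b and the summed isoforms, 2 lower genes, and -0.23 for the porins. Of the genes of the whole table past 2.0-fold, 41.7% were lower as deposited, 8.41% under ribosomal protein scaling and 61.9% under the library median. The upper quartile gave 0.999 for the summed isoforms. A pseudocount of 1 gave 15.8 for Cpt1b and 24.6 for the change of the Cpt1b to Cpt1a ratio, and a threshold of 4-fold left 0 lower genes. Fragments in place of FPKM put the share of Cpt1a at 63.7% (D0) and 42.4% (D7), since its transcript is the longest of the isoforms. The share of Cpt1b at D7 was then 41.8%, with an interval that overlapped that of Cpt1a. No paired analysis was possible because each stage has 1 library. Depth limits the D0 value of Cpt1b most among the 7 genes, with about 73 fragments.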
